A study of Mus musculus with 2 samples.

Results

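The 39 genes described here are S phase and G2/M phase cell cycle genes, followed across the cell classes of sorted mouse spleen cells in 2 single-cell libraries. They were taken by gene symbol from the 32285 genes of the count matrices, and all 39 were present. 1 library was labelled Low B12 and 1 High B12, after the vitamin B12 treatment, and the cells of both came from viably frozen spleen suspensions sorted as CD45.2+CD11b+ with DAPI. The series title names Tet2-deficient haematopoiesis. The labels used here give no genotype, strain, age, dose, duration or number of mice for either library. Whether the libraries share these, and whether animals were pooled, is not known here. With 1 library per treatment there is no replicate, so library and treatment cannot be told apart, and no p-value was computed between them. Every interval below is a 95% interval that covers counting error only.

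A cell that divides first licenses its replication origins, when the MCM helicase is loaded on DNA with the help of Cdc6, and then copies its DNA behind the sliding clamp Pcna with nucleotides supplied by ribonucleotide reductase (Rrm1, Rrm2) and thymidylate synthase (Tyms). New DNA is packed into chromatin by histone chaperones such as Nasp and Chaf1b, and its methylation is copied with the help of Uhrf1. Later, Cdk1 with cyclins A and B drives mitosis, Top2a untangles sister chromatids, Mki67 (Ki-67) coats mitotic chromosomes, and Birc5 (survivin) serves the chromosomal passenger complex. In the neutrophil lineage, division is known to end as cells leave the promyelocyte and myelocyte stages, before the segmented cell that circulates. By role, the 39 genes are 12 of licensing and fork assembly, 12 of DNA synthesis, 7 of chromatin and S phase control and 8 of mitosis. The mitosis group holds Stmn1, which encodes the microtubule regulator stathmin, beside 7 mitotic genes (Mki67, Top2a, Cdk1, Ccnb1, Ccnb2, Ccna2 and Birc5).

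Promoter letters were counted by role. Windows from 250 bases before to 50 after the RefSeq transcript start (GRCm38.p6) were found for 31 of the 39 genes, as 34 windows because 3 genes have 2. The E2F letters searched, on both strands, were TTTCCCGC, TTTGGCGC, TTTCGCGC and TTTGCCGC, after the transcription factors that switch on S phase genes. They occurred in 7 of 10 windows of the licensing genes, in 2 of 10 of the synthesis genes, in 3 of 8 of the chromatin genes and in 1 of 6 of the mitosis genes, against 2.26% of 32851 windows of all genes. The cell cycle homology region (CHR), searched as TTTGAA or TTTAAA on both strands, is a site of the complexes that time mitotic genes. It occurred in 6 of 6 mitosis windows and in 9 of 28 windows of the other 3 groups, against 27.6% of all windows. CCAAT occurred in 5 of 6 and 20 of 28, against 37.4%. A match is a description of letters, and no binding was measured. The windows of Mcm6 on the minus strand of chr1:128359656-128359955, Cdk1 on the minus strand of chr10:69352863-69353162, Ccnb2 on the minus strand of chr9:70421505-70421804 and Top2a on the minus strand of chr11:99024140-99024439 are shown as examples of a licensing gene and of 3 mitosis genes whose levels are given below. They are written 5′ to 3′ on the gene's strand. Capitals in Mcm6 mark E2F and CCAAT letters, with an overlapping E2F pair on opposite strands as a single run. Its window has no CHR match. In Cdk1, the only mitosis window with all 3 motifs, capitals mark E2F, CHR and CCAAT letters, and in Ccnb2 and Top2a they mark CHR and CCAAT letters. Matches on the other strand read as reverse complements (ATTGG for CCAAT).
Mcm6: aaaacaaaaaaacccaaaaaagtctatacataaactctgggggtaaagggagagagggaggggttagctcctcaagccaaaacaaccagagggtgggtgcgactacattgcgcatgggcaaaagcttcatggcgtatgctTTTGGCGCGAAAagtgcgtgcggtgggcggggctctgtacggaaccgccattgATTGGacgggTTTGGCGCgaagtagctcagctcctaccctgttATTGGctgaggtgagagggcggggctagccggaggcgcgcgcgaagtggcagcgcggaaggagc
Cdk1: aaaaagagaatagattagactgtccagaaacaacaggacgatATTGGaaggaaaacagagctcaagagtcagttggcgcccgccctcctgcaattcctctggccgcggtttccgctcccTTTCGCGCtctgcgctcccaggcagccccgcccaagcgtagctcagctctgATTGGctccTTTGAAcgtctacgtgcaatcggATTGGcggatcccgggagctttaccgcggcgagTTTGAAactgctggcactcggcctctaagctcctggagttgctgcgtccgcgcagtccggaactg
Ccnb2: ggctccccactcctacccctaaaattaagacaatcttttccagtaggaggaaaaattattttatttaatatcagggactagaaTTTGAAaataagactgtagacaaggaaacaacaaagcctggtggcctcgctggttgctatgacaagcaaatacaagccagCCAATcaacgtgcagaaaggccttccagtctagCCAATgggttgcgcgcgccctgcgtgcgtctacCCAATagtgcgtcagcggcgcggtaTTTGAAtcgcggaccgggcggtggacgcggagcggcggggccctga
Top2a: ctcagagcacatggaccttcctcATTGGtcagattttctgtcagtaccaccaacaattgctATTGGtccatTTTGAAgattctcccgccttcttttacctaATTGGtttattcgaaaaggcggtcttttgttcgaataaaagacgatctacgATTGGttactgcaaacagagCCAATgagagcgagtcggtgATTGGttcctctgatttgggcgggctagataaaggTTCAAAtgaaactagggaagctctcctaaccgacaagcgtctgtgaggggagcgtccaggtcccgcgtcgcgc

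A barcode counted as a cell from 500 UMIs and 200 genes, with mitochondrial UMIs up to 10%, which gave 6510 cells with low and 6748 with high B12, at medians of 5695 and 4327 UMIs per cell and totals of 48884220 and 46994991 UMIs. A UMI (unique molecular identifier) counts 1 captured RNA molecule. The libraries shared 4 cell barcodes. Each cell went to the first of 8 classes whose genes it showed, and the classes are named after those genes. Progenitor-class cells (Elane, Mpo, Prtn3, the azurophil granule genes of promyelocytes) numbered 19 and 35, with the low-B12 library given first here and below. Neutrophils (S100a8, S100a9) with RNA of the secondary granule genes Camp, Ngp and Ltf numbered 253 and 723, and neutrophils without it 677 and 1928. There were 1852 and 673 B cells (Cd79a, Cd79b), 946 and 844 NK cells (Ncr1, Klrb1c), 478 and 402 conventional dendritic cells (Cd209a, Clec10a, Flt3), 1262 and 836 monocytes (Csf1r), and 1023 and 1307 unmatched cells. All 7 B cell markers, all 7 NK markers, all 8 dendritic markers and all 7 monocyte markers had UMIs in their own class in both libraries. These lists include the genes that define the classes, and 1 UMI in a class was enough, so this is no check of the class names. RNA of the sorted surface antigen CD11b (Itgam) was found in 98.4% and 97.5% of neutrophils with granule RNA, and in 41.9% and 38.2% of B cells. Levels are CPM, a gene's UMIs scaled to a common total of all UMIs of a class. The 3′ counts are not per gene length, so levels are compared between classes or libraries for the same gene or sum, not between genes.

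The 39 genes together were highest in the progenitor class of both libraries. Their summed level there was 4708 CPM (interval 4522 to 4900) with low and 5159 CPM (5014 to 5306) with high B12. Neutrophils with granule RNA came second, at 1483 CPM (1443 to 1524) and 1197 CPM (1175 to 1220), and neutrophils without granule RNA were lowest, at 327 CPM (304 to 352) and 276 CPM (263 to 288). The other classes lay between them. NK cells stood at 979 and 980 CPM, unmatched cells at 903 and 905, dendritic cells at 845 and 585, B cells at 681 and 560 and monocytes at 508 and 517. The intervals of NK and unmatched cells did not overlap in either library, and those of B cells and dendritic cells did in the high-B12 library. Gene by gene, 37 of the 39 were highest in the progenitor class in both libraries. The exceptions, each in the low-B12 library, were Rfc2, a clamp loader subunit, which was highest in B cells, and Ung, a uracil-DNA glycosylase, which was highest in NK cells. The second place of neutrophils with granule RNA held in both libraries for 8 of 8 mitosis genes, 3 of 12 licensing, 6 of 12 synthesis and 2 of 7 chromatin genes.

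**Figure D1:**
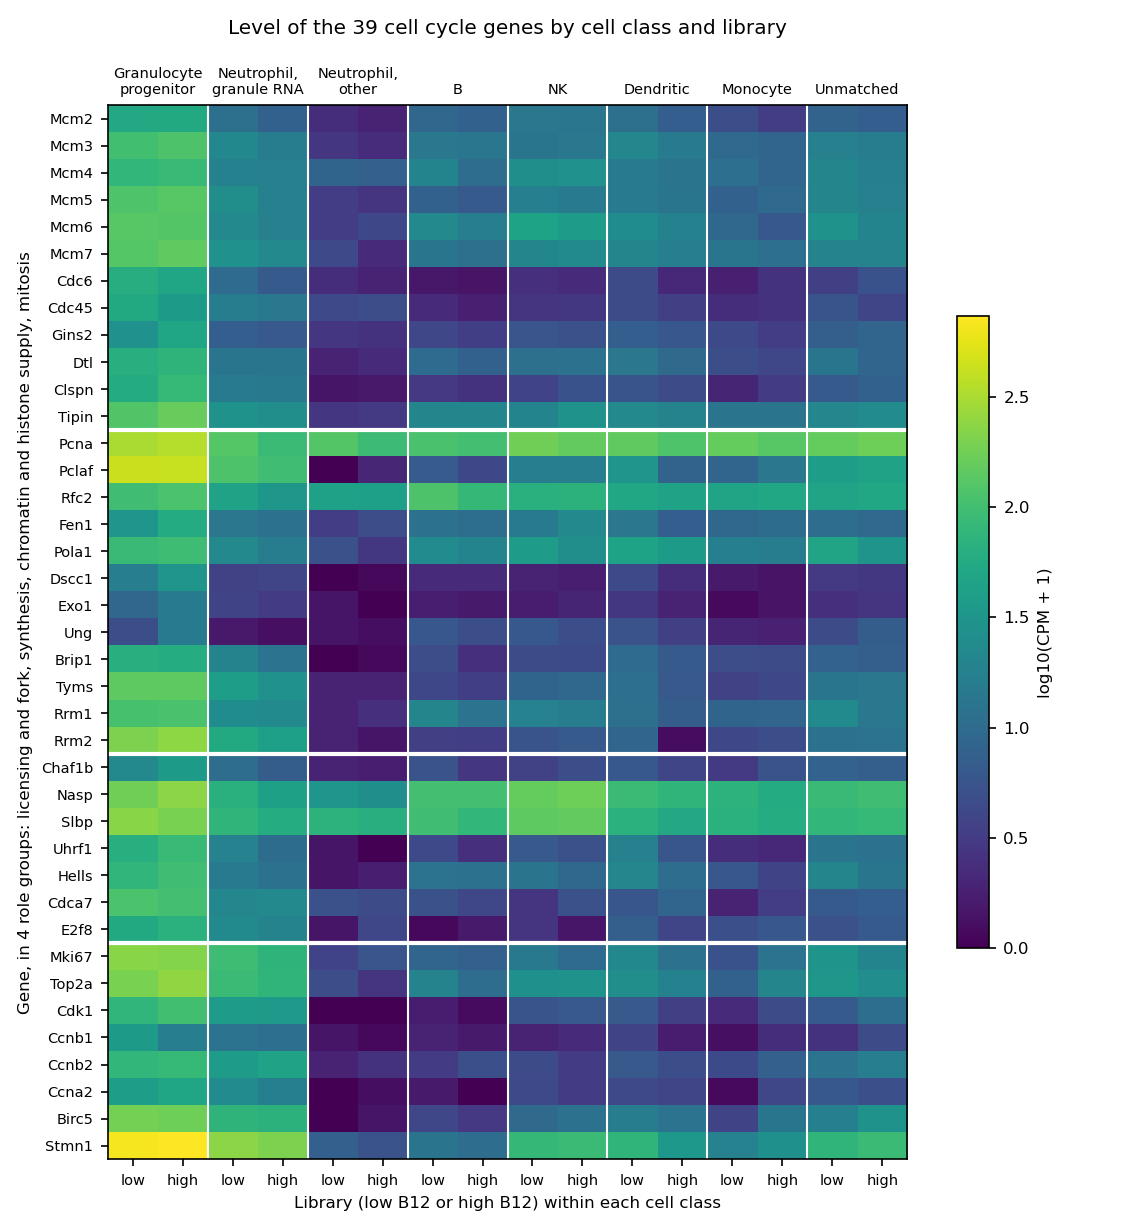
Level of each of the 39 genes (rows, grouped by role) in each of the 8 cell classes (columns) of the low-B12 and high-B12 libraries, as log10 of CPM plus 1. The progenitor class is brightest (highest) for 37 of the 39 genes in both libraries, and 4 genes (Pcna, Rfc2, Nasp and Slbp) keep a level in every class.

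By role, the classes below the progenitors ranked differently. Mcm6 of the licensing group was at 44.7 and 37.3 CPM in NK cells and 23.8 and 17.0 in dendritic cells. It was at 21.2 and 15.9 in B cells and 21.2 and 16.9 in neutrophils with granule RNA. NK cells thus came before this neutrophil class. Mcm5, another subunit of that helicase, was at 25.2 and 16.9 CPM in neutrophils with granule RNA and at 16.4 and 13.9 in NK cells. The synthesis gene Rrm2 was at 53.8 and 40.1 CPM in neutrophils with granule RNA and only 4.53 and 5.53 in NK cells, and Pclaf was at 116 and 95.3 against 16 and 15.6. Top2a stood at 88.0 and 74.9 CPM in neutrophils with granule RNA, 26.1 and 28.9 in NK cells, 24.9 and 17.0 in dendritic cells and 18.1 and 9.48 in B cells. Cyclin B2 (Ccnb2) was at 36.8 and 43.5 CPM in neutrophils with granule RNA and at 2.23 and 4.03 in B cells. The mitotic and nucleotide supply genes were higher in neutrophils with granule RNA than in NK, dendritic and B cells in both libraries, and Mcm6 was not.

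Where the RNA lay followed from these levels and from the number of cells in each class. The progenitor class and neutrophils with granule RNA together held 63.3% of all Cdk1 UMIs with low and 79.8% with high B12, and 61.9% and 83.3% of Rrm2. For Birc5 the shares were 56.5% and 71.1%, and for Mki67 49.0% and 73.0%. At the other end they held 9.84% and 22.4% of Pcna and 14.4% and 37.8% of Mcm6, while B cells held 23.6% and 9.83% of Pcna and 28.9% and 10.8% of Mcm6. A UMI of Cdk1 was found in 107 and 171 cells of the libraries, and a UMI of Pcna in 3115 and 2572.

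In the progenitor class every role was present. Of the licensing genes, Mcm7, a helicase subunit, stood at 127 CPM (98.0 to 162) with low and 144 CPM (121 to 171) with high B12. The other subunits Mcm2, Mcm3, Mcm4, Mcm5 and Mcm6 ranged from 52.7 to 131 CPM and from 54.4 to 132 CPM. The levels of all 6 in the 2 libraries had overlapping intervals. Of the synthesis genes, Pcna was at 316 and 349 CPM, Pclaf, the clamp's associated factor, at 432 and 425, and Rrm2, the S phase subunit of ribonucleotide reductase, at 201 and 238. Of the mitosis genes, Mki67 was at 227 and 215 CPM, Top2a at 191 and 243, Birc5 at 186 and 171 and Cdk1 at 76.2 and 98.2. Every one of the 19 and 35 cells held at least 3 UMIs of the 39 genes and at least 2 UMIs of the 7 mitotic genes. These were deep cells, with median totals of 26257 and 25187 UMIs, and the class itself requires 10 UMIs of Elane, Mpo and Prtn3. Other RNA in the class differed between the libraries: the 7 B cell markers summed to 615 and 55.5 CPM, and mast cell or basophil RNA was found in 1 of the 35 high-B12 cells and in none of the low-B12 cells. Without that cell the 39 genes stood at 5172 CPM in the high-B12 library.

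Neutrophils with granule RNA held the largest part of the mitotic RNA of each spleen sample, 36.1% of all mitotic UMIs with low and 56.0% with high B12, and they did so in a minority of their cells. Cells with at least 2 mitotic UMIs were 61 of 253 (24.1%) and 164 of 723 (22.7%), and only 14 and 39 cells had exactly 1. In neutrophils without granule RNA the same share was 0.443% (3 cells) and 0.311% (6 cells), at median depths of 2709 and 3084 UMIs against 11808 and 11791. The replication genes were concentrated in the same cells. Cells with 2 or more mitotic UMIs held 99.5% and 99.7% of the class's Pclaf UMIs, 99.5% and 99.2% of its Rrm2, 97.1% and 97.2% of its Stmn1 and 90.7% and 88.7% of its Mcm6. They held 66.7% and 64.2% of Pcna and 51.3% and 42.2% of Rfc2, so these were spread wider. The mitotic cells were deeper, with medians of 19327 and 19412 UMIs against 10202 and 10410 in cells with none.

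Cells of this class with 2 or more mitotic UMIs and cells with none differed in maturation genes. Fcnb, a ficolin of early granule stages, stood at 795 and 719 CPM in cells with 2 or more mitotic UMIs and at 152 and 166 CPM in cells with none. Camp, the cathelicidin of secondary granules, was at 51186 and 52541 CPM against 35344 and 35176. Not all genes of these granules ran that way: Ltf (lactoferrin) was at 4966 and 4932 CPM against 7225 and 7118, and Lcn2 (lipocalin 2) was close, at 13356 and 14680 against 13105 and 14628. Granule and migration genes of later stages ran the other way. Mmp8, the neutrophil collagenase, was at 40.6 and 44.7 CPM in the mitotic cells and at 1119 and 1059 CPM in those without, Mmp9 (gelatinase B) at 99.0 and 132 against 1189 and 1243, and the chemokine receptor Cxcr2 at 30.4 and 46.6 against 148 and 160. Retnlg, another gene of late stages, was at 338 and 394 CPM against 5352 and 8984. Prtn3, the azurophil granule protease that helps to define the progenitor class, remained measurable in the mitotic cells at 44.5 and 33.0 CPM, against 1.5 and 2.44 CPM. These genes were listed with results of these data known, and the values are a description with no test.

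**Figure D2:**
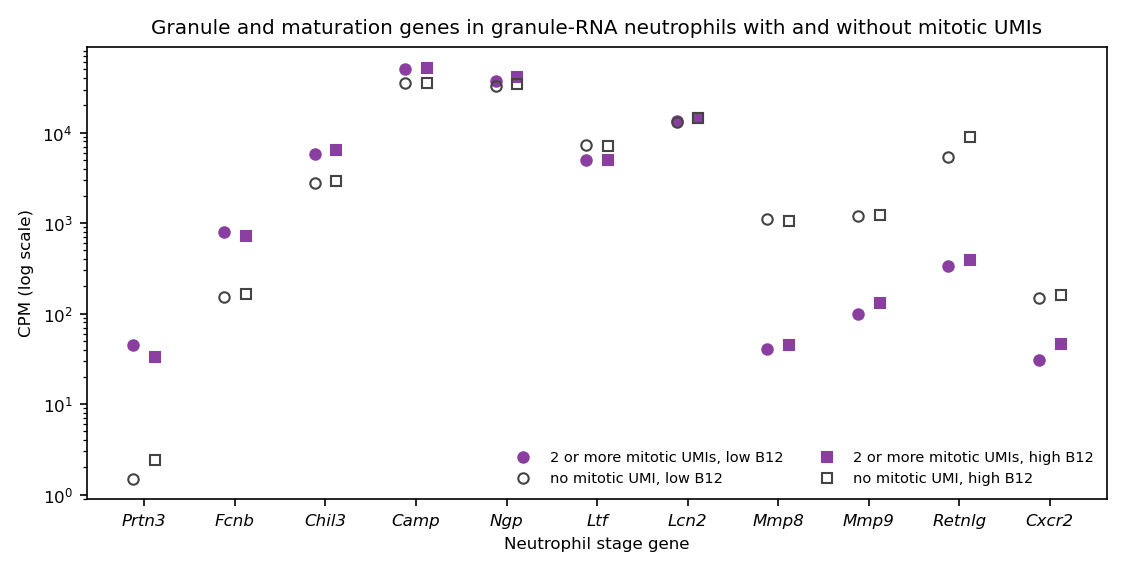
Levels of stage genes, as CPM on a log axis, in neutrophils with granule RNA, for cells with at least 2 mitotic UMIs and cells with none, in each library. Fcnb and Prtn3 are higher in the mitotic cells and Mmp8, Mmp9, Retnlg and Cxcr2 are lower, in both libraries.

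Neutrophils without granule RNA kept few of the 39 genes. The 7 mitotic genes summed to 7.91 CPM (17 UMIs) with low and 8.91 CPM (61 UMIs) with high B12. Cdk1 had no UMI in either library, and 28 of the 39 genes were lowest in this class in both. What remained came mainly from 4 genes with at least 20 CPM here, a grouping chosen after the values were seen: Pcna at 123 and 91.7 CPM, Slbp, which binds the stem-loop of histone mRNA, at 71.2 and 61.0, Rfc2 at 42.3 and 40.5 and the histone chaperone Nasp at 31.2 and 25.9. These 4 gave 81.8% and 79.5% of the class's UMIs of the 39 genes, against 17.3% and 17.2% in the progenitor class and 20.9% and 18.4% in neutrophils with granule RNA. They gave most of them in B cells (62.0% and 64.7%), NK cells (54.9% and 54.7%) and monocytes (66.1% and 57.4%). A sum over all 39 genes therefore follows these 4 genes in cells that show little mitotic RNA. Droplets without a cell, with 1 to 100 UMIs, held the 39 genes at 739 and 785 CPM and the 7 mitotic genes at 81.0 and 112 CPM, above the 7.91 and 8.91 CPM of this class. The mitotic levels of B cells (33.2 and 23.0 CPM), NK cells (60.7 and 59.4), dendritic cells (77.4 and 49.3) and monocytes (19.0 and 56.9) were also below those of the droplets. The part of droplet RNA in these classes was not tested.

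Without those 4 genes, S phase and mitosis RNA followed each other across classes. Over the 16 combinations of class and library, the 27 remaining S phase genes and the 7 mitotic genes had a Pearson r of 0.972 and a Spearman rho of 0.971, while the 4 broad genes and the mitotic genes had 0.778 and 0.494. The 4 broad genes were picked for their level in neutrophils without granule RNA, the class with the least mitotic RNA. The gap between these values is therefore partly set by that choice. The points share their libraries and differ in depth, so these are descriptions. The 27 genes summed to 2401 and 2667 CPM in the progenitor class, 581 and 461 in neutrophils with granule RNA, 343 and 214 in dendritic cells, 300 and 296 in NK cells, 214 and 165 in B cells, 135 and 137 in monocytes and 45.1 and 43.2 in neutrophils without granule RNA. Within a class they were also higher in the cells with mitotic RNA. In NK cells they stood at 2435 and 1899 CPM in cells with 2 or more mitotic UMIs and at 234 and 219 CPM in cells with none, and in monocytes at 1160 and 1041 CPM against 108 and 90. The gap was smaller in B cells, at 550 and 352 CPM against 192 and 158.

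Lymphoid cells kept S phase gene RNA outside the cells with 2 or more mitotic UMIs. Cells with exactly 1 mitotic UMI, 196 and 63 B cells and 37 and 44 NK cells, count as outside, so the shares depend on this cut. In B cells, cells with 2 or more mitotic UMIs held 6.43% and 4.17% of the Mcm4 UMIs, 8.77% and 5.06% of the Mcm6 UMIs, 7.28% and 3.51% of the Rrm1 UMIs and 6.76% and 2.36% of the Pcna UMIs. Pclaf was unlike them, with 83.1% and 81.2% of its B cell UMIs in those cells. In NK cells the same contrast held between Mcm6, with 10.1% and 12.3%, and Pclaf, with 93.2% and 89.2%. Stmn1 lay between them in NK cells, at 46.9% and 52.8%, and NK cells without any mitotic UMI still held it at 45.9 and 39.4 CPM.

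Other genes also accompanied these RNAs. In neutrophils with granule RNA, cells with at least 5 UMIs of the 39 genes held the replication-dependent histone gene Hist1h3c at 163 and 147 CPM, where cells with none had no UMI of it. Hist1h3c belongs to a multigene family whose copies may share reads. The dUTPase gene Dut, of nucleotide supply, was at 111 and 97.8 CPM in them against 0 and 0.71, and Ube2c, of mitotic exit, at 127 and 129 CPM against 0 and 1.42. Dut and Ube2c are themselves on the lists of other cell cycle genes counted below. Other classes showed RNA of foreign cell types in such cells. In neutrophils without granule RNA, the class II invariant chain Cd74 stood at 4384 and 4927 CPM in the 24 and 47 cells with at least 5 UMIs and at 70.2 and 75.7 CPM in cells with none, and the cytotoxic granule gene Gzma at 448 and 1282 CPM against 8.19 and 10.7. In B cells the neutrophil gene S100a9 was at 1074 and 1676 CPM against 56.1 and 287, and in NK cells the myeloid gene Lyz2 was at 1834 and 388 CPM against 161 and 52.2. Cells with at least 5 UMIs are deeper by selection, and the part of this RNA in the counts of these classes was not tested.

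The share of cells with at least 3 UMIs of the 39 genes gave another order from the CPM. At full depth it was 71.5% and 62.7% in B cells, 74.5% and 71.9% in dendritic cells, 67.1% and 62.6% in NK cells and 60.5% and 56.8% in monocytes, above the 51.0% and 43.2% of neutrophils with granule RNA, and 10.6% and 10.2% in neutrophils without it. With each cell thinned to 1000 UMIs the order changed. Neutrophils with granule RNA then stood at 15.9% and 11.7%, NK cells at 8.81% and 6.62%, dendritic cells at 4.81% and 4.73%, B cells at 3.84% and 4.02%, monocytes at 1.91% and 3.12% and neutrophils without granule RNA at 0.744% and 0.680%. The progenitor class stayed highest, at 84.2% and 82.9%. Thinning left out 118 low-B12 and 192 high-B12 cells with fewer UMIs. Over all cells the share was 56.3% against 38.4% at full depth and 4.90% against 4.91% after thinning, so the gap between the libraries in this measure was -17.9 points, high minus low, at full depth and 0.0148 points at equal depth. The all-cell value combines class shares that differed in opposite directions with a different class mix. Neutrophils with granule RNA were 3.89% and 10.7% of the cells. A cut of 3 UMIs is also stricter at 1000 UMIs than at full depth.

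**Figure D3:**
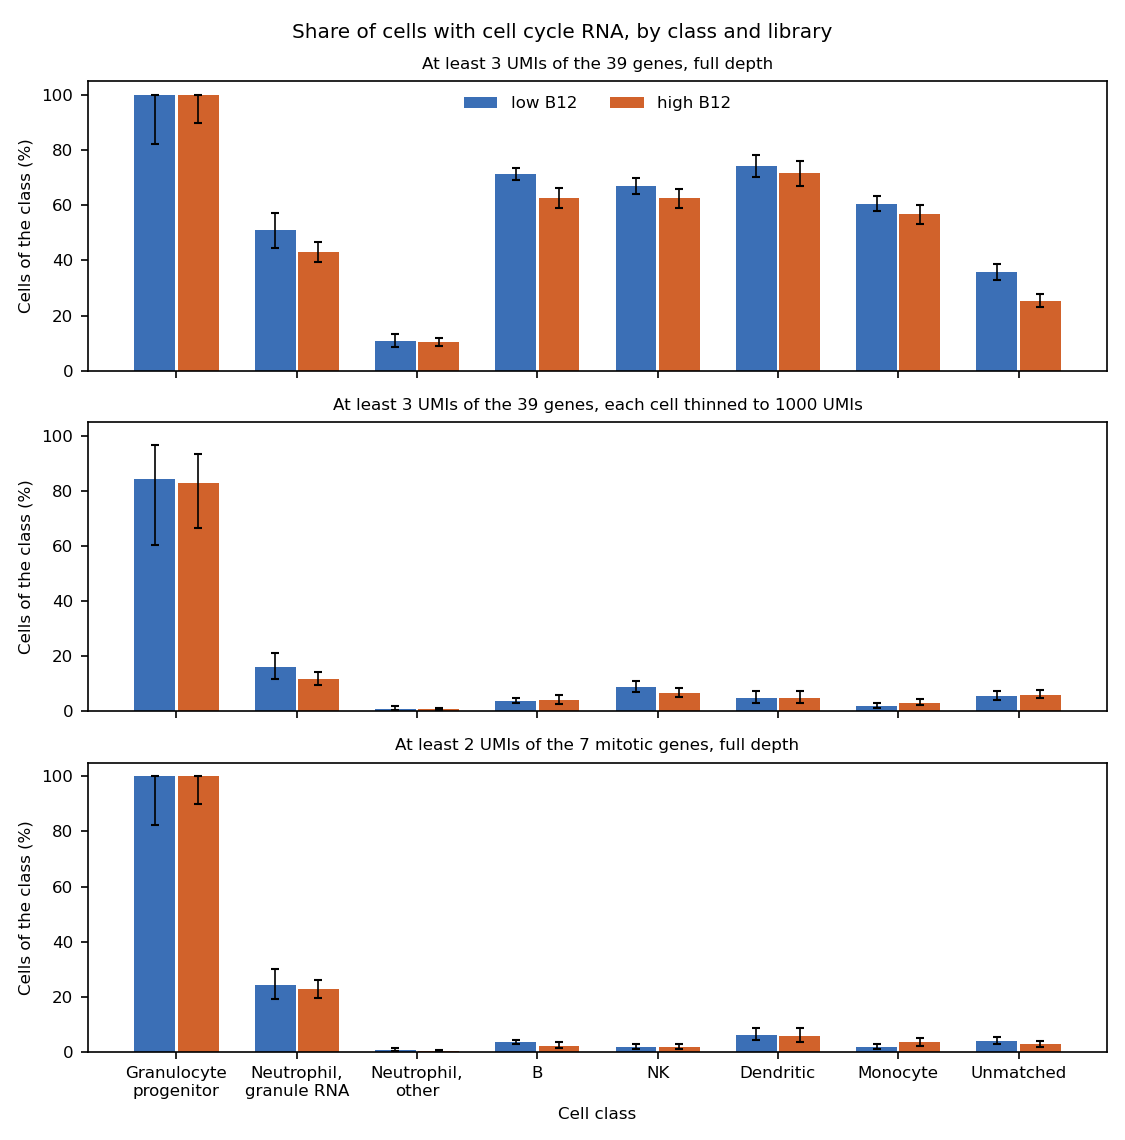
Share of cells, in percent with exact binomial intervals, by class and library: at least 3 UMIs of the 39 genes at full depth (top), the same after thinning each cell to 1000 UMIs (middle), and at least 2 UMIs of the 7 mitotic genes (bottom). B cells, NK cells, dendritic cells and monocytes are above neutrophils with granule RNA in the top panel and below them in the middle and bottom panels.

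Between the libraries, the all-cell level of the mitotic genes was higher with high B12 while their level at a fixed mix of classes was not. Over all cells the 7 mitotic genes stood at 79.4 CPM with low and 126 CPM with high B12, a 1.58-fold difference (1.52 to 1.65). When the class levels of each library were weighted by the same class mix, the values were 105 and 102 CPM, a ratio of 0.972. Neutrophils with granule RNA made up 3.89% and 10.7% of the cells, and the progenitor class 0.292% and 0.519%. All 8 mitosis genes were above a ratio of 1 over all cells and 5 of them were at least 1.5-fold higher. Of the 39 genes, each with at least 50 UMIs in both libraries together, 9 were at least 1.5-fold higher and 0 at least 1.5-fold lower in the high-B12 library, against 7.21% and 20.3% of all genes. Scaled by the median gene ratio in place of total UMIs, which moves the median of all genes by 0.27 on the log2 scale, the split was 18 higher and 0 lower. The shares of all genes given here and below are on the CPM scale. They are therefore no background for counts with median scaling. Cdk1 was at 5.93 and 12.3 CPM (2.08-fold, 1.79 to 2.42), Ccnb2, a B-type cyclin, at 7.56 and 15.6 (2.06-fold, 1.8 to 2.36) and Birc5 at 13.9 and 26.4 (1.89-fold, 1.71 to 2.09). Rrm2 was at 10.6 and 16.9 CPM. On the other side Rfc2 was at 69.6 and 50.4 CPM, a ratio of 0.725, and Pola1, the catalytic subunit of the polymerase that primes DNA synthesis, at 27.7 and 19.7 CPM, a ratio of 0.713.

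**Figure D4:**
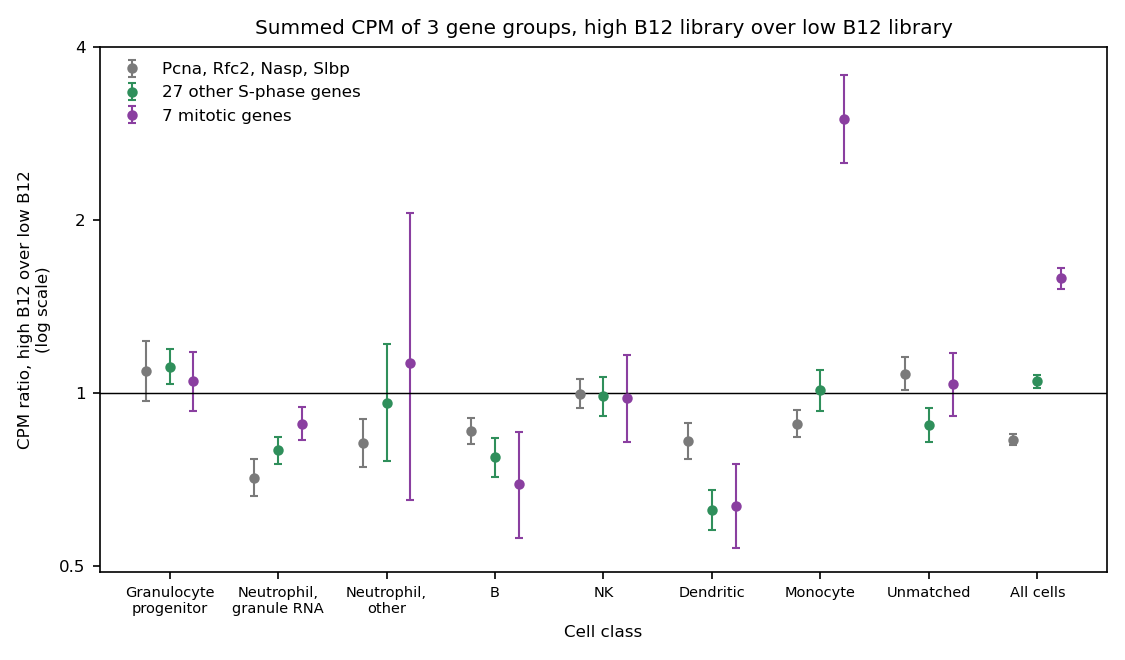
Summed CPM of the high-B12 library divided by that of the low-B12 library, by class for the 4 broad genes, the other 27 S phase genes and the 7 mitotic genes, with exact intervals on a log axis. The mitotic genes are above 1, with intervals that leave it out, in monocytes (2.99) and over all cells (1.58). They are below 1 in the same way in dendritic cells (0.636), B cells (0.693) and neutrophils with granule RNA (0.883).

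Within classes the sum of the 39 genes was near equal in NK cells (ratio 1.00, 0.959 to 1.04), monocytes (1.02, 0.976 to 1.06) and unmatched cells (1.00, 0.961 to 1.05). It was higher in the high-B12 library in the progenitor class (1.10, 1.04 to 1.15) and lower in neutrophils with granule RNA (0.807, 0.781 to 0.834), neutrophils without it (0.842, 0.772 to 0.919), B cells (0.822, 0.788 to 0.858) and dendritic cells (0.692, 0.659 to 0.727). In the progenitor class 2 of 34 genes with enough UMIs were at least 1.5-fold higher and 1 lower, against 4.76% and 11.8% of all genes. They were Fen1, the flap endonuclease of Okazaki fragment processing, at 31.3 and 56.6 CPM, Gins2, a replicative helicase subunit, at 27.3 and 48.0, and Cdc45, a partner in that helicase, at 54.7 and 35.2. Of these 3, named after their values were seen, Fen1 had an interval (1.02 to 3.39) that left out a ratio of 1. With median scaling the split was 2 higher and 0 lower.

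In neutrophils with granule RNA most of the genes were lower in the high-B12 library, the 4 broad genes with a ratio of 0.711 (0.66 to 0.765), the 27 other S phase genes with 0.794 (0.753 to 0.837) and the 7 mitotic genes with 0.883 (0.827 to 0.944). The last 2 intervals overlapped. Of 36 genes with enough UMIs 0 were at least 1.5-fold higher and 6 lower, against 1.6% and 19.8% of all genes, so the members' 6 of 36 lay near the background of lower genes. The members' median log2 ratio was -0.33 against -0.26 over all genes. With scaling by the median gene ratio, 1 was at least 1.5-fold lower, and the members above and below an even ratio went from 2 and 34 to 15 and 21. The log2 ratio of the 7 mitotic genes was then 0.081, against -0.18 on the CPM scale. Nasp stood at 65.3 and 41.4 CPM (ratio 0.633, 0.537 to 0.748), Uhrf1 at 17.5 and 9.25 (0.528, 0.377 to 0.743) and Pcna at 127 and 88.3 (0.694, 0.618 to 0.78). Of the helicase subunits, Mcm2 was at 10.5 and 6.81 CPM, Mcm5 at 25.2 and 16.9 and Mcm4 at 17.3 and 16.8. The mitotic genes lay closer to even, with Cdk1 at 36.2 and 34.9 CPM, Birc5 at 72.4 and 68.0, Top2a at 88.0 and 74.9 and Mki67 at 93.4 and 71.4. Ccnb2, at 36.8 and 43.5 CPM, was higher in the high-B12 library, with an interval of its ratio from 0.969 to 1.45. The share of cells with 2 or more mitotic UMIs, 24.1% and 22.7%, was similar in the libraries. RNA of other cell types moved with the difference. B cell markers summed to 346 and 67.2 CPM in the class (372 and 36.8 in its mitotic cells) and dendritic markers to 341 and 159 (374 and 134), and their part in the result was not tested.

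In neutrophils without granule RNA, 5 genes had enough UMIs and none was past 1.5-fold, where 3.09% of all genes were higher and 8.6% lower. Pcna had a ratio of 0.744 (0.644 to 0.862). The mitotic genes had too few UMIs in this class for values of single genes.

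B cells of the low-B12 library held more RNA of several replication genes. Of 29 genes with enough UMIs 1 was at least 1.5-fold higher and 8 lower in the high-B12 library, against 2.96% and 8.78% of all genes, and the median log2 ratio of the members was -0.37 against -0.12 over all genes. Mcm4 stood at 18.5 CPM with low B12 and 9.68 CPM with high B12 (ratio 0.523, 0.376 to 0.715), Top2a at 18.1 and 9.48 (0.525, 0.375 to 0.719) and Rrm1 at 19.4 and 11.5 (0.592, 0.437 to 0.792). Rfc2 was at 116 and 80.3 CPM, a ratio of 0.695. Pcna, at 109 and 102 CPM, and Nasp, at 101 and 102, differed by less than their counting error. The 7 mitotic genes stood at 33.2 and 23.0 CPM, a ratio of 0.693. Cells with 2 or more mitotic UMIs were 63 of 1852 (3.40%) and 15 of 673 (2.23%). In the high-B12 library these 15 cells had plasma cell marker RNA at 12010 CPM against 1122 in B cells without mitotic UMIs, with the antibody joining chain Jchain in 4 of the 15. In the low-B12 library the values were 1180 and 925 CPM, and the part of this RNA in the difference was not tested.

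NK cells differed little between the libraries, with 0 of 22 genes past 1.5-fold in either direction, where 2.2% of all genes were higher and 7.5% lower. With median scaling 2 were higher and 0 lower. The 7 mitotic genes stood at 60.7 and 59.4 CPM, and cells with 2 or more mitotic UMIs were 16 of 946 (1.69%) and 15 of 844 (1.78%). Top2a was at 26.1 and 28.9 CPM, Stmn1 at 80.9 and 88.7 and Mcm6 at 44.7 and 37.3, each with an interval of its ratio that included 1. Pcna was at 176 and 148 CPM (ratio 0.843, 0.758 to 0.937). The few mitotic cells carried most of this RNA: the 10 cells with most mitotic UMIs held 82.6% and 78.1% of them.

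Dendritic cells had the lowest ratio of the 39 genes, and here replication and mitosis genes differed together. Of 26 genes with enough UMIs, 25 were below a ratio of 1, 10 at least 1.5-fold lower and 1 (Cdca7) higher in the high-B12 library, against 5.94% and 2.18% of all genes. The median log2 ratio was -0.51, against -0.08 over all genes. Pclaf stood at 30.9 CPM (161 UMIs) with low and 7.14 CPM (31 UMIs) with high B12, 4.32-fold lower (2.93 to 6.57). Its UMIs came from 23 of 478 cells and from 4 of 402 cells. Uhrf1 was at 16.7 and 4.83 CPM, 3.45-fold lower (2.12 to 5.85), in 29 and 11 cells, and Stmn1 at 74.7 and 32.7 CPM, 2.29-fold lower (1.88 to 2.79), in 65 and 47 cells. Hells, a chromatin remodeller of DNA methylation, was at 20.1 and 9.67 CPM, Fen1 at 12.8 and 6.22 and Mki67 at 20.5 and 10.8. The helicase subunits were closer, with Mcm6 at 23.8 and 17.0 CPM and Mcm7 at 19.7 and 15.9. Rrm2, below the UMI minimum and named after its values were seen, had 40 UMIs in 9 low-B12 cells and 1 UMI in 1 high-B12 cell.

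The share of mitotic dendritic cells was similar in the libraries while the RNA of the 39 genes in them was not. Cells with 2 or more mitotic UMIs were 29 of 478 (6.07%) and 23 of 402 (5.72%). In them the 27 S phase genes stood at 2135 and 836 CPM, Stmn1 at 688 and 250 CPM, and in cells without mitotic UMIs the 27 genes stood at 164 and 154 CPM. Mitotic cells had median depths of 15242 and 11109 UMIs. They also differed in dendritic subset genes: Xcr1, the chemokine receptor of cross-presenting dendritic cells, was at 68.1 CPM (31 UMIs in 5 cells) and 9.88 CPM (3 UMIs in 2 cells), and Cd209a, of the other subset, at 187 and 352 CPM. Macrophage marker RNA in them summed to 400 and 138 CPM, and C1qa among them came from 1 low-B12 and 3 high-B12 cells. The part of these in the result was not tested. Without the 10 cells with most UMIs of the 39 genes in each library, the log2 ratio of the 7 mitotic genes was -0.78, against -0.65 with them. That of Stmn1 was -1.18 against -1.19, but Top2a moved from -0.55 to 0.02, and Pclaf had too few UMIs left.

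In monocytes the mitosis and licensing genes lay on opposite sides of an even ratio. All 5 mitosis genes with enough UMIs were at least 1.5-fold higher with high B12 (median log2 ratio 1.44), while 8 of 9 licensing genes were below a ratio of 1 (median -0.34). Over the 39 genes 7 of 28 were higher and 3 lower, against 2.45% and 5.55% of all genes, and the members' median was 0.01 against -0.08. Birc5 stood at 2.86 CPM (29 UMIs) with low and 11.9 CPM (86 UMIs) with high B12, 4.16-fold higher (2.7 to 6.57), in 11 of 1262 and 21 of 836 cells. Top2a was at 6.79 and 19.1 CPM (2.8-fold, 2.09 to 3.8), in 37 and 28 cells, and Mki67 at 4.23 and 11.5 CPM (2.71-fold, 1.85 to 4.01), in 30 and 36 cells. Ccnb2 was at 3.45 and 6.49 CPM, Pclaf at 7.68 and 12.6 and Stmn1 at 17.4 and 26.4. Against them Mcm6 was at 7.98 and 5.11 CPM, Mcm2 at 3.84 and 2.35 and Pcna at 153 and 131.

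**Figure D5:**
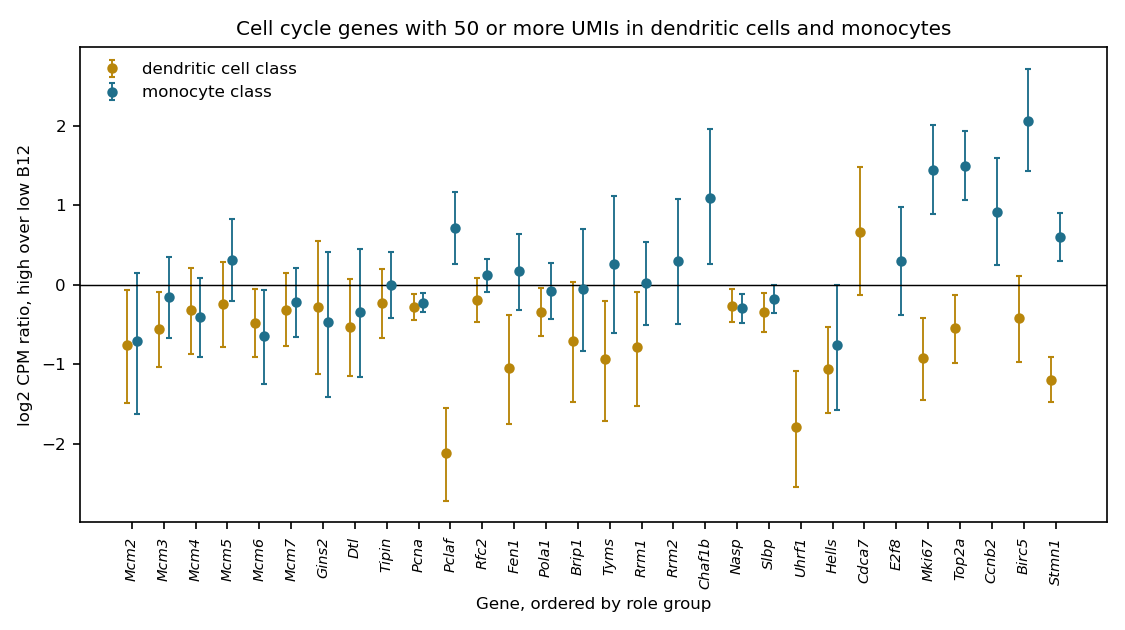
CPM of the high-B12 library over that of the low-B12 library, on a log2 scale with exact intervals, for the genes with at least 50 UMIs in dendritic cells and in monocytes, grouped by role. Dendritic cells lie below 0 for 25 of 26 genes, and in monocytes the 5 mitosis genes lie above 0 while 8 of 9 licensing genes lie below it.

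The monocyte result rested on few cells. Together the 7 mitotic genes stood at 19.0 and 56.9 CPM, 2.99-fold higher with high B12 (2.52 to 3.57), with 2 or more such UMIs in 22 of 1262 cells (1.74%) and 28 of 836 (3.35%). The 10 cells with most mitotic UMIs held 52.8% and 76.2% of them. Without the 10 cells with most UMIs of the 39 genes in each library, the log2 ratio of the 7 mitotic genes was 0.53 against 1.58 with all cells, that of Mki67 0.44 against 1.44, that of Birc5 1.65 against 2.06 and that of Top2a -0.45 against 1.49. The count of genes past 1.5-fold went from 10 to 2. In both libraries the mitotic monocytes had more RNA of Ly6c2, a marker of classical monocytes, than monocytes without mitotic UMIs, 826 and 995 CPM against 422 and 647. They had less of Ace, at 128 and 94.9 against 266 and 167, and of Nr4a1, the factor of non-classical monocytes, at 250 and 178 against 398 and 281. The classical marker Ccr2 was at 462 and 601 CPM against 587 and 783. Neutrophil progenitor markers in the mitotic cells summed to 51.4 and 104 CPM against 23.6 and 25 CPM, and NK markers to 7.34 and 244 CPM, with Gzma in 2 of the 28 high-B12 cells. Of those cells, 17.9% were called doublets in the high-B12 library and 0% in the low-B12 library. Without cells with 5 or more UMIs of Elane, Mpo and Prtn3 the log2 ratio was 1.54. Without all called doublets it was 1.57. Erythroid markers summed to 1226 and 23 CPM in the mitotic cells against 69.3 and 31.7, with the globin gene Hbb-bs in 2 of the 22 and 1 of the 28 cells. The part of the NK and erythroid RNA in the result was not tested.

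Unmatched cells, which met no class rule, had mitotic RNA at 101 and 104 CPM and 40 of 1023 (3.91%) and 35 of 1307 (2.68%) cells with 2 or more mitotic UMIs. Of 31 genes with enough UMIs 2 were at least 1.5-fold higher and 6 lower in the high-B12 library, against 7.13% and 11.7% of all genes, and with median scaling 3 were higher and 2 lower. Birc5 was at 16.3 and 28.1 CPM (1.72-fold, 1.3 to 2.3), Cdk1 at 5.51 and 9.73, Pola1 at 46.3 and 29.2 (ratio 0.630, 0.506 to 0.782) and Mki67 at 29.2 and 18.8. T cell markers summed to 1129 and 976 CPM in the mitotic cells against 240 and 167 CPM in cells without mitotic UMIs, and Cd3e, a chain of the T cell receptor complex, was found in 12 of the 40 and 7 of the 35. NK markers summed to 348 and 1309 CPM in the mitotic cells against 378 and 379. Mast cell or basophil markers were at 0 and 1277 CPM in them, each of the 5 genes in 1 of the 35 high-B12 cells. Erythroid markers over the class were at 33.9 and 799 CPM, but at 8.98 and 7.79 in the mitotic cells. The part of these in the result was not tested. RNA of Itgam (CD11b), the sorted antigen, was found in 51.0% and 52.7% of unmatched cells.

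Cell cycle genes outside the 39 were counted from 2 lists, of 50 other S phase genes and 57 other G2 and M genes. In monocytes 6 of 27 G2 and M genes with enough UMIs were at least 1.5-fold higher and 2 lower, and 0 of 36 S phase genes were higher and 3 lower, against 2.45% and 5.55% of all genes. Among them the ubiquitin-conjugating enzyme of mitotic exit Ube2c stood at 3.25 and 11.0 CPM, the kinetochore gene Spc24 at 1.48 and 4.97, the spindle motor Kif11 at 2.07 and 6.07 and Nusap1 at 2.07 and 5.94. In dendritic cells 0 of 24 G2 and M genes were higher and 10 lower, and 1 of 34 S phase genes was higher and 11 lower, against 2.18% and 5.94%. There Nusap1, a spindle protein, stood at 14.4 and 2.76 CPM, Spc24 at 9.01 and 2.76 and the checkpoint kinase Bub1b at 7.28 and 2.99. In neutrophils with granule RNA 0 of 54 G2 and M genes were higher and 11 lower, and 0 of 45 S phase genes were higher and 9 lower, with the polymerase subunit Pole2 at 12.2 and 3.83 CPM and the condensin subunit Ncapg at 19.8 and 9.15. These counts lay near the background there, 1.6% higher and 19.8% lower. In B cells 1 of 27 and 0 of 43 were higher and 7 and 6 lower, against 2.96% and 8.78% of all genes. In NK cells 2 of 23 G2 and M genes were higher and 0 lower, and 0 of 34 S phase genes were higher and 2 lower, against 2.2% and 7.5%.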

How the data were processed

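The data were 3′ single-cell RNA libraries of mouse splenic CD45.2+CD11b+ cells, 1 labelled Low B12 and 1 High B12. Both deposited matrices give UMI counts as the authors left them, not normalized, for all barcodes with empty droplets included. Their pipeline was Cell Ranger, version 4 per the file headers and 2.1.1 per the submitters' processing notes, and the labels name a 10x Genomics 3′ v2 kit. Neither the genome build nor the annotation is given in the sources used here. GENCODE M21 held 32158 (99.6%) of the 32285 gene IDs and all 39 members.

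Cells were called by the same limits in both libraries (500 UMIs, 200 genes, 10% mitochondrial) and held 91.1% and 90.7% of all UMIs. They were put into classes by the first match: Elane, Mpo and Prtn3 at least 10 UMIs; S100a8 and S100a9 at least 5% of UMIs, divided by Camp, Ngp and Ltf at 1%; Cd79a and Cd79b at least 3; Ncr1 and Klrb1c at least 2; Cd209a, Clec10a and Flt3 at least 3; Csf1r at least 2. Doublets were kept. Scrublet within scanpy 1.11.5 called 453 (6.96%) and 304 (4.51%) barcodes, which were left out as an alternative. Counts were summed over the cells of a class and given as CPM, with exact Poisson intervals for levels, exact conditional binomial intervals for ratios and exact Clopper-Pearson intervals for shares, at 95%. No test between libraries was made, with 1 library per treatment. A gene had enough UMIs at 50 in both libraries together and was past the fold at 1.5. Steps used Python 3.11.15, numpy 2.4.6, scipy 1.17.1 and pandas 2.3.3, and the ratios were checked on simulated counts.

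The members and lists were chosen with earlier results of these data known. Named with values were Mcm2 to Mcm7, Pcna, Rrm2, Pclaf, Stmn1 and the 7 mitotic genes in classes with 50 UMIs, members whose ratio interval lay beyond 1.25 (up to 10 each way per class), other cell cycle genes by the same rule (up to 4 each way) and up to 10 genes per class that accompanied at least 5 member UMIs. Other names were chosen after their values were seen. Alternatives changed the scaling, the UMI minimum, the cell weights, the depth and the cells or genes left out.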

Additional observations from a re-analysis of the deposited data

Results flagged for a closer look

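Droplets without a cell held RNA of the 39 genes. In barcodes with 1 to 100 UMIs their summed level was 739 CPM with low and 785 CPM with high B12, against 809 and 830 CPM in all cells. This signal lies in barcodes that the comparisons above did not use, and its part in any class was not tested.

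The ratio of the 7 mitotic genes went opposite ways in different classes. The log2 ratio of high over low B12 was 1.58 in monocytes, but -0.18 in neutrophils with granule RNA, -0.53 in B cells and -0.65 in dendritic cells. Over all genes the median in neutrophils with granule RNA was -0.26, and scaled by it the mitotic ratio there was 0.081, so its direction depends on the scaling. With 1 library per treatment the difference between classes was not tested.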

How the results depend on the processing

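Values are log2 ratios of the summed 39 genes, high over low B12, unless named otherwise, and counts are genes past 1.5-fold. Without doublets the progenitor class moved from 0.13 to 0.043, and the NK count from 0 to 1. Without the 10 cells with most member UMIs the sums were 0.26 in the progenitor class, -0.10 in neutrophils with granule RNA (from -0.31), -0.34 in dendritic cells (from -0.53) and -0.14 in monocytes (from 0.03). The counts were then 9 (from 3), 3 (from 6), 7 (from 11) and 2 (from 10), and 3 in NK cells. With scaling by the median gene ratio the sums were -0.049 in neutrophils with granule RNA, -0.11 in those without (from -0.25), -0.16 in B cells (from -0.28), 0.11 in NK cells (from 0.00), -0.45 in dendritic cells, 0.11 in monocytes, 0.12 in unmatched cells (from 0.00) and 0.31 over all cells (from 0.04), with counts of 1 in neutrophils with granule RNA, 2 in NK cells, 5 in unmatched cells (from 8) and 18 over all cells (from 9). With every cell weighted the same the sums were -0.24 in neutrophils with granule RNA, -0.078 in NK cells, -0.25 in dendritic cells, -0.15 in unmatched cells and -0.20 over all cells, a reversal. Thinned to 1000 UMIs they were -0.055 in B cells, -0.21 in NK cells, -0.16 in dendritic cells, -0.18 in unmatched cells and -0.23 over all cells, again reversed. The difference in the share of cells with 3 UMIs, in points, moved on thinning from -8.79 to 0.182 in B cells, from -3.72 to 1.21 in monocytes, from -10.5 to 0.455 in unmatched cells and from -17.9 to 0.0148 over all cells. At 5 UMIs it was -6.41 in unmatched cells and -11.7 over all cells. Without Pcna, Nasp and Slbp the sums were -0.071 in neutrophils without granule RNA, -0.43 in B cells, -0.68 in dendritic cells, 0.31 in monocytes, -0.060 in unmatched cells and 0.19 over all cells. A minimum of 20 UMIs in place of 50 gave counts of 6 in the progenitor class, 5 in neutrophils without granule RNA, 3 in NK cells and 18 in dendritic cells.

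With median scaling the members above and below an even ratio went from 2 and 34 to 15 and 21 in neutrophils with granule RNA and from 23 and 16 to 32 and 7 over all cells. The mitotic sum, with median scaling chosen after seeing the data, was 0.081 in neutrophils with granule RNA (from -0.18), a reversal. Of single named genes whose interval left out an even ratio, those that reversed were Rrm2 (0.12) and Top2a (0.032) in neutrophils with granule RNA and Top2a in dendritic cells (0.023) and monocytes (-0.45) without the 10 cells, Stmn1 (0.028) and Top2a (0.027) in neutrophils with granule RNA and Mcm4 (0.065) and Pcna (0.072) over all cells with median scaling, and Top2a in neutrophils with granule RNA (0.11) and Stmn1 in unmatched cells (-0.69) with equal weights. The causes were not tested. All 140 gene and mitotic values stayed within their interval without doublets, and all 18 sums and shares did at a minimum of 1000 UMIs. No paired analysis was possible because each treatment has 1 library, and leaving out a replicate was not possible for the same reason. Depth limits single mitotic genes in lymphoid cells, monocytes and neutrophils without granule RNA, most of which had under 50 UMIs per library.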

Other observations

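Genes that act before S phase were also counted. A list of 26 G1 cyclins, cyclin-dependent kinases, their inhibitors and antiproliferative genes was counted at 1.5-fold: 0 higher and 5 lower of 23 in neutrophils with granule RNA, 1 higher and 3 lower of 19 in those without, 0 higher and 5 lower of 24 in B cells and 3 higher and 2 lower of 23 in unmatched cells. All genes were higher and lower in 1.6% and 19.8%, 3.09% and 8.6%, 2.96% and 8.78%, and 7.13% and 11.7% of cases in these classes. The lower count in neutrophils with granule RNA lay near that background. In NK cells 0 were higher and 3 lower of 22, against 2.2% and 7.5% of all genes. Dendritic cells had 0 and 1 of 23 (2.18% and 5.94%) and monocytes 0 and 1 of 23 (2.45% and 5.55%). The progenitor class had 0 and 0 of 12 (4.76% and 11.8%). Ccnd3, the D-type cyclin of blood cells, was lower with high B12 in the classes listed next. It was at 303 and 244 CPM in neutrophils with granule RNA, 885 and 551 in those without and 329 and 198 in B cells. In NK cells it was at 641 and 459, in dendritic cells at 341 and 233 and in monocytes at 406 and 220. Over all genes the median log2 ratio in neutrophils with granule RNA was -0.26. The progenitor class and unmatched cells are not given for Ccnd3. Ccnd1, another D-type cyclin, was at 204 and 101 CPM in unmatched cells and 11.0 and 1.81 CPM in B cells. In unmatched cells Btg2 and Btg1, antiproliferative genes, stood at 690.5 and 1392 CPM and at 1079 and 1646 CPM.

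Cdkn1c, which encodes the inhibitor p57, was found in neutrophils without granule RNA as 2 UMIs in 2 low-B12 cells and 105 UMIs in 6 high-B12 cells, so its class value came from very few cells.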
